A study of Mus musculus with 28 samples.

Results

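Lysosomal hydrolases and membrane proteins were followed as a group of 35 genes in the aged frontal cortex of Tardbp Q331K knock-in mice. The members were taken by symbol from a list of lysosomal enzymes and membrane proteins, and all 35 were found among the 25900 gene identifiers of the count table, 1 row each. PolyA RNA of frontal cortex, collected at 20 months from mice of C57BL/6 background, was sequenced in 28 libraries. The wild-type group (WT, +/+) had 8 libraries, the heterozygous group (HET, Q331K/+) had 10 and the homozygous group (HOM, Q331K/Q331K) had 10. The knock-in places the ALS-linked Q331K substitution of the RNA-binding protein TDP-43 in the mouse gene Tardbp, and the labels name no other allele and no treatment in any group. Sex, litter, batch and whether each library came from its own animal are not in the labels, so p-values measure the spread between libraries, which may be technical in part.

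Lysosomes are acidic compartments that break down material delivered by endocytosis, phagocytosis and autophagy. Soluble hydrolases inside them (cathepsins, glycosidases, sulfatases, lipases) each cleave one kind of bond, and loss of a single enzyme in humans causes a storage disease, often with neurodegeneration. Membrane proteins of the LAMP, LAPTM and tetraspanin families line the compartment, and other membrane proteins move ions, lipids or enzymes across or into it. Every brain cell has lysosomes, but microglia, the resident phagocytes, are rich in several cathepsins and in Laptm5. Many lysosomal genes are targets of the transcription factor TFEB, which binds a motif with the core CACGTG, known as the CLEAR element.

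Promoter sequence is shown for 3 members as examples of motif matches. Whether a motif goes with the differences between genotypes below was not tested. RefSeq windows (GRCm38.p6, from 250 bases before to 50 after an annotated start) were matched by symbol for 32 of the 35 members, all but Asah1, Ctsb and Ctsh. The letters CACGTG, a palindrome and so the same on both strands, were found in at least 1 window of 11 of these 32 members (34.4%), against 8.09% of all 27025 genes with a window. The 11 were Cln3, Ctsa, Ctsf, Ctsl, Gaa, Gla, Glb1, Lamp1, Mcoln1, Naglu and Sgsh. Of the 8 members that differed between genotypes below, 7 had a window (Ctsh was not searched), and of these Ctsa alone had a match, 12 bases before and 5 after the second of its annotated starts. GAGGAAGT, a form of the site of the myeloid factor PU.1, was searched on both strands. It was found in Ctsc, Ctss, Gla and Gusb (12.5%, against 3.69% of all genes). Of these, Ctsc alone was among the 8 members that differed between genotypes. A match is a string of letters and not a bound site. The sequences below run 5′ to 3′ on the plus strand, which is the strand of all 3 genes. They stop before the first annotated exon base, and capitals mark CACGTG or, in Ctsc, the reverse complement of GAGGAAGT.
Lamp1 (chr8:13158911-13159134): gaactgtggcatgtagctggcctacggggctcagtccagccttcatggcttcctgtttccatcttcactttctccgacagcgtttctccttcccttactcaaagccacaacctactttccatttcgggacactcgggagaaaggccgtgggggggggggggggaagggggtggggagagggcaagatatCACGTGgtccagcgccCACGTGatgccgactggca
Glb1 (chr9:114400828-114401075): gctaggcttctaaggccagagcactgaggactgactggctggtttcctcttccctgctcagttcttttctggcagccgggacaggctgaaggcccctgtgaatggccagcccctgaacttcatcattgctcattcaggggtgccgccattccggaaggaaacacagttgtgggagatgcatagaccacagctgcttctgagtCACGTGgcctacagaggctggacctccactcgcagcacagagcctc
Ctsc (chr7:88277835-88278084): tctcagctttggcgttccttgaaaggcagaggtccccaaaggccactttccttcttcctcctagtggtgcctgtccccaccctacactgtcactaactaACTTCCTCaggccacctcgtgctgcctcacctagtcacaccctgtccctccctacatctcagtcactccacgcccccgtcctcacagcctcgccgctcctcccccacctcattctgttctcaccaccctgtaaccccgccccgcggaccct
Lamp1 had 4 CACGTG matches in its window, beginning 61, 45, 28 and 15 bases before the RefSeq start, of which the first pair falls inside the stretch printed. Glb1 had 1 match at 48 bases before the start, and the match in Ctsc begins 151 bases before the start.

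Total counts ran from 30460746 to 74907712 reads per library, with HOM 2 and HOM 1 the shallowest, and the 35 members together took 0.331% to 0.35% of each total. In every library the 14 neuron markers in the table summed to 14400 to 16200 CPM (read counts scaled to library size). The 10 choroid plexus and ependymal markers summed to at most 11.3 CPM. These markers do not tell frontal cortex from other brain regions, so the region in the labels was not checked. WT 6 and HOM 3 stood apart from the other libraries. WT 6 had the lowest and HOM 3 the highest mean log2 CPM of the perivascular macrophage and monocyte markers in their groups (-1.51 and 1.1) and of the meningeal fibroblast markers (1.34 and 3.62). Calls that rest on them are given with and without them.

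The members spanned a wide range of levels. On the RPKM scale, which divides CPM by the union of annotated exons in kilobases, Ids led in WT with a level of 129 ± 4.2 (SD, n = 8). It encodes iduronate 2-sulfatase, which starts the breakdown of dermatan and heparan sulfate. Lamp1, the abundant glycoprotein of the lysosomal membrane, followed with a level of 120 ± 7.3 RPKM, then the cysteine protease gene Ctsb at 110 ± 4.25 and the transmembrane gene Laptm4a at 92.7 ± 3.28 RPKM. The WT libraries of Lamp1 (112 to 134 RPKM) overlapped those of Ids (124 to 135) and of Ctsb (103 to 115), so this order is not sharp, while those of Laptm4a (86.9 to 96.4) lay below all 3. Ctss, a cathepsin of microglia and other phagocytes, was the fifth at 66.6 ± 4.3 RPKM, and its libraries (62.4 to 75.9) overlapped neither neighbour. At the other end stood Ctsh (2.08 ± 0.112 RPKM), Manba (2.03 ± 0.0631), Sgsh (1.42 ± 0.123) and Ctsc (1.4 ± 0.118), where Sgsh and Ctsc differed by less than their spread. This order depends on the exon length used. In CPM, Ctsk was lowest in WT with a mean of 3.35, while Ctsc and Ctsh stood at 8.14 and 9.36. All 35 members averaged at least 1 CPM, and all were tested.

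**Figure D1:**
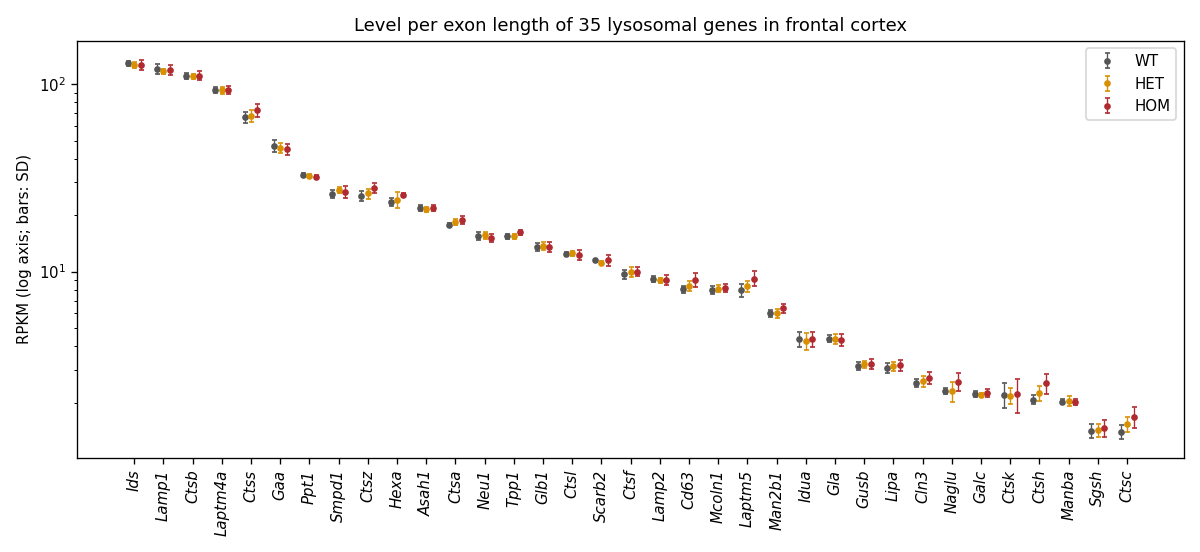
Level of each of the 35 members in RPKM (log axis) in WT, HET and HOM, with points for the mean and bars for the SD between libraries (n = 8, 10 and 10). The order runs from Ids to Ctsc, and the 3 genotypes lie close together for most genes.

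In HOM against WT, 8 of the 35 members were higher, 0 were lower and 27 did not pass the threshold. The 8 were the cathepsin genes Ctsh, Ctsc, Ctsz and Ctsa, the peptidase gene Tpp1, the hexosaminidase gene Hexa and the membrane protein genes Laptm5 and Cd63, and their log2 fold changes were small, from 0.07 to 0.29. They make up 22.9% of the members, while 7.61% of the 16110 genes tested passed in either direction, 3.9% as higher and 3.71% as lower (edgeR quasi-likelihood test, adjusted p under 0.05 over all genes). The median log2 fold change was 0.033 over the members and 0.005 over all genes tested, and 23 members had a positive and 12 a negative value. For 0 of the 8 were HOM and WT libraries fully separated, which was so for 0.459% of all genes. In bulk tissue, more or fewer cells of a type and more or less RNA per cell cannot be told apart. Over all genes 1226 were called with every library, 595 of 16169 without WT 6 and 509 of 16132 without WT 6 and HOM 3. Calls were thus fewer over the whole set of genes, and not only among the members. The members' count of 8 was 2 without WT 6, with Ctsh and Laptm5 left, and 2 without WT 6 and HOM 3 together. It was 3 without WT 7, 4 without any 1 of WT 2, HOM 2, HOM 3, HOM 6 or HOM 10, and 5 without any 1 of WT 1, WT 4, WT 5, HET 1, HET 4, HET 6, HET 8 or HOM 4.

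**Figure D2:**
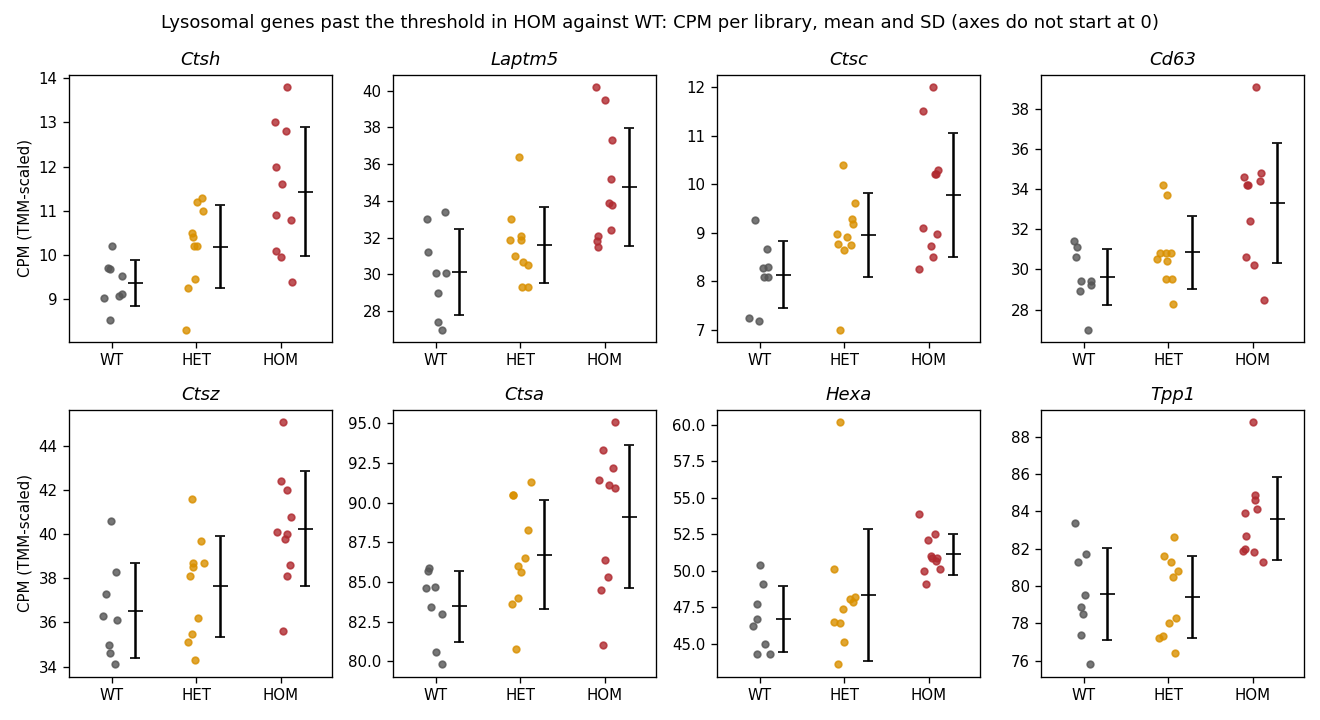
CPM of the 8 members that were higher in HOM than in WT, 1 point per library, with the mean and SD of each genotype beside the points (n = 8 WT, 10 HET, 10 HOM; the axes do not start at 0). HOM points reach higher than WT points in every panel, and the groups overlap in every panel.

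Among the proteases, 5 of 10 were higher. Ctsh encodes cathepsin H, an aminopeptidase of the papain family (ENSMUSG00000032359, chr9:90054152-90076089, GRCm38, plus strand). Its WT libraries ran from 8.53 to 10.2 CPM with a median of 9.33, HET from 8.32 to 11.3 with a median of 10.3, and HOM from 9.39 to 13.8 with a median of 11.2. The groups overlapped, with 7 of 10 HOM libraries above the highest WT library and HOM 3 the highest of all. HOM exceeded WT by 0.29 on the log2 scale (SE 0.066, edgeR quasi-likelihood adjusted p = 0.00772), a fold of 1.22 and the largest among the 35 members, and the call held without each single library in turn.

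Ctsc encodes cathepsin C, the dipeptidyl peptidase that activates serine proteases of granules (ENSMUSG00000030560, chr7:88278085-88310888, plus strand), and it is one of the sequences printed above. It ran from 7.19 to 9.26 CPM in WT (median 8.19), from 7.01 to 10.4 in HET (median 8.94) and from 8.25 to 12 in HOM (median 9.63). None of the 10 HOM libraries was under the average of WT, and 5 exceeded its top value, with HOM 3 again highest. The difference on the log2 scale was 0.27 (SE 0.071, edgeR adjusted p = 0.0214), with an adjusted p of 0.0543 when WT 6 was left out.

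Ctsz encodes cathepsin Z, a carboxypeptidase made in quantity by microglia (ENSMUSG00000016256, chr2:174427493-174439039, minus strand). It ran from 34.1 to 40.6 CPM in WT (median 36.2), from 34.3 to 41.6 in HET (median 38.3) and from 35.6 to 45.1 in HOM (median 40.1). The overlap was wide, with 4 HOM libraries above WT 8, the highest WT library. HOM and WT differed by 0.14 in log2 units (SE 0.041, edgeR adjusted p = 0.0368), and the call was lost without any 1 of WT 2, WT 4, WT 5, WT 6, WT 7, HOM 2, HOM 3, HOM 6 or HOM 10, with adjusted p of 0.0844 without WT 6.

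Ctsa encodes the protective protein cathepsin A, which stabilises neuraminidase and beta-galactosidase in a complex (ENSMUSG00000017760, chr2:164832873-164841032, plus strand). It ran from 79.8 to 85.9 CPM in WT (median 84), from 80.8 to 91.3 in HET (median 86.3) and from 81 to 95.1 in HOM (median 91). HOM 9 lay near the bottom of the WT range, while 7 HOM libraries lay above every WT library. The log2 difference was 0.09 (SE 0.029, edgeR adjusted p = 0.0452), and the call held in 9 of the 28 fits that left out 1 library. Its exons overlap those of the coding genes Neurl2 and Pltp on the other strand over 819 bases, and its value is uncertain to that extent. Its partner genes in that complex, Neu1 and Glb1, stood at 57.7 ± 2.54 and 41 ± 2.03 CPM in WT (n = 8) and at 56.4 ± 2.68 and 40.7 ± 2.53 CPM in HOM (n = 10), and neither passed.

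Tpp1 encodes tripeptidyl peptidase 1, the enzyme missing in a late infantile form of neuronal ceroid lipofuscinosis (ENSMUSG00000030894, chr7:105744847-105752207, minus strand). It ran from 75.8 to 83.4 CPM in WT (median 79.2), from 76.4 to 82.6 in HET (median 79.4) and from 81.3 to 88.8 in HOM (median 83.3). The HET and WT means were 79.4 and 79.6 CPM, and 10 of 10 HOM libraries exceeded the average of WT. The gain was 0.07 in log2 units (SE 0.023, edgeR adjusted p = 0.0487), a fold of 1.05. The call held in 5 of the 28 fits that left out 1 library, those without WT 3, HET 5, HET 10, HOM 1 or HOM 8.

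Of the proteases that did not pass, Ctss came nearest and is described although it lay outside the rule for named genes, a choice made after its values were seen. It ran from 84.7 to 103 CPM in WT (median 89.9), from 79.8 to 104 in HET (median 93.8) and from 83.1 to 111 in HOM (median 99.1). HOM 1 lay below every WT library and 4 HOM libraries lay above every one. The log2 difference came to 0.12 (SE 0.048, edgeR adjusted p = 0.108), and adjusted p was 0.0449 without HOM 1 and 0.0339 by limma voom over all libraries. Ctsb and Ctsl, the broadly expressed cathepsins, had log2 fold changes near 0, with 95% intervals (normal, from the SE) of -0.06 to 0.06 each. Ctsf averaged 48.9 ± 2.61 CPM in WT and 50.5 ± 2.83 in HOM, and Ctsk, best known from osteoclasts, 3.35 ± 0.491 and 3.36 ± 0.691. Exons of Ctsb share 774 bases with Fdft1 on the other strand, and those of Ctsl overlap the pseudogene Gm49230 on the same strand, so both values are uncertain to that extent.

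Among the membrane proteins, 2 of 8 were higher. Laptm5 encodes a lysosomal transmembrane protein of hematopoietic cells, in brain mainly microglia (ENSMUSG00000028581, chr4:130913125-130936141, plus strand). It ran from 27 to 33.4 CPM in WT (median 30.1), from 29.3 to 36.4 in HET (median 31.4) and from 31.5 to 40.2 in HOM (median 33.8). Each HOM library exceeded the average of WT, and 6 exceeded its top value. In log2 units HOM was higher by 0.20 (SE 0.051, edgeR adjusted p = 0.0156), a fold of 1.15, and the call held without each single library in turn, at 0.0447 without WT 6.

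Cd63 encodes a tetraspanin of late endosomes, lysosomes and exosomes (ENSMUSG00000025351, chr10:128908919-128912816, plus strand). It ran from 27 to 31.4 CPM in WT (median 29.4), from 28.3 to 34.2 in HET (median 30.7) and from 28.5 to 39.1 in HOM (median 34.2). HOM 7 lay below the WT mean and 7 HOM libraries lay above every WT library. HOM exceeded WT by 0.17 in log2 units (SE 0.046, edgeR adjusted p = 0.0249), and the call was lost without WT 6 (adjusted p = 0.0543) or without WT 7.

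The other 6 membrane protein genes did not pass. Lamp1 and Lamp2, the 2 main structural glycoproteins of the lysosomal membrane, stood at 320 ± 19.5 and 87 ± 3.21 CPM in WT (n = 8) and at 319 ± 18 and 86.5 ± 5.02 CPM in HOM (n = 10). Their intervals for the log2 fold change were -0.07 to 0.06 and -0.07 to 0.05. Scarb2, an integral protein of the lysosomal membrane, and Laptm4a had intervals of -0.06 to 0.06 each. Mcoln1, the calcium channel of the lysosomal membrane, averaged 60.5 ± 3.11 CPM in WT and 62.1 ± 3.01 in HOM, and Cln3, the gene of juvenile Batten disease, 14.8 ± 0.79 and 15.7 ± 1.12. Lamp1 differed between HOM and WT by less than its spread.

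Among the glycosidases, 1 of 10 was higher, Hexa, which encodes the alpha subunit of beta-hexosaminidase, the enzyme missing in Tay-Sachs disease (ENSMUSG00000025232, chr9:59539667-59565105, plus strand). It ran from 44.3 to 50.4 CPM in WT (median 46.5), from 43.6 to 60.2 in HET (median 47.6) and from 49.1 to 53.9 in HOM (median 50.9). The HOM libraries were tightly grouped and 7 of them lay above every WT library, and the highest value of all came from HET 10. The HOM to WT difference was 0.13 in log2 units (SE 0.041, edgeR adjusted p = 0.0467), and the call held in 6 of the 28 fits that left out 1 library, those without WT 5, WT 8, HET 2, HET 7, HET 10 or HOM 7. Its exons share 255 bases with Tmem202 on the other strand.

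The rest of the glycosidases had log2 fold changes from -0.06 (Gaa) to 0.15 (Naglu). Naglu, which removes N-acetylglucosamine from heparan sulfate, averaged 6.18 ± 0.243 CPM in WT and 6.89 ± 0.765 in HOM (edgeR adjusted p = 0.157). Man2b1, the lysosomal alpha-mannosidase, averaged 48.1 ± 1.96 and 51.2 ± 2.98 CPM (edgeR adjusted p = 0.127). Gaa, the acid alpha-glucosidase of glycogen breakdown, averaged 224 ± 17.3 and 215 ± 14.5 CPM (edgeR adjusted p = 0.396). These 3 were named after their values were seen, as the members with the smallest p or the lowest value among those left. Gusb, Gla, Idua and Manba, which act on glucuronides, alpha-galactosides, iduronides and beta-mannosides, moved by at most 0.03 in either direction.

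No sulfatase or lipid and acyl hydrolase passed: 0 of 7 by edgeR, with 0 at an unadjusted p under 0.05. Ids had the smallest p of the 2 sulfatases. It ran from 633 to 689 CPM in WT (median 656), from 592 to 673 in HET (median 649) and from 568 to 703 in HOM (median 651), with HOM reaching past WT on both sides. Its log2 fold change was -0.03 (SE 0.032, edgeR adjusted p = 0.6). Ppt1, the palmitoyl-protein thioesterase of infantile ceroid lipofuscinosis, had the smallest p of the lipid and acyl hydrolases. It ran from 116 to 124 CPM in WT (median 120), from 115 to 124 in HET (median 120) and from 114 to 121 in HOM (median 117), which gave a log2 difference of -0.03 (SE 0.02, edgeR adjusted p = 0.368). Sgsh, Smpd1 (acid sphingomyelinase), Lipa (acid lipase), Galc (galactosylceramidase) and Asah1 (acid ceramidase) had log2 differences from -0.00 (Asah1) to 0.04.

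**Figure D3:**
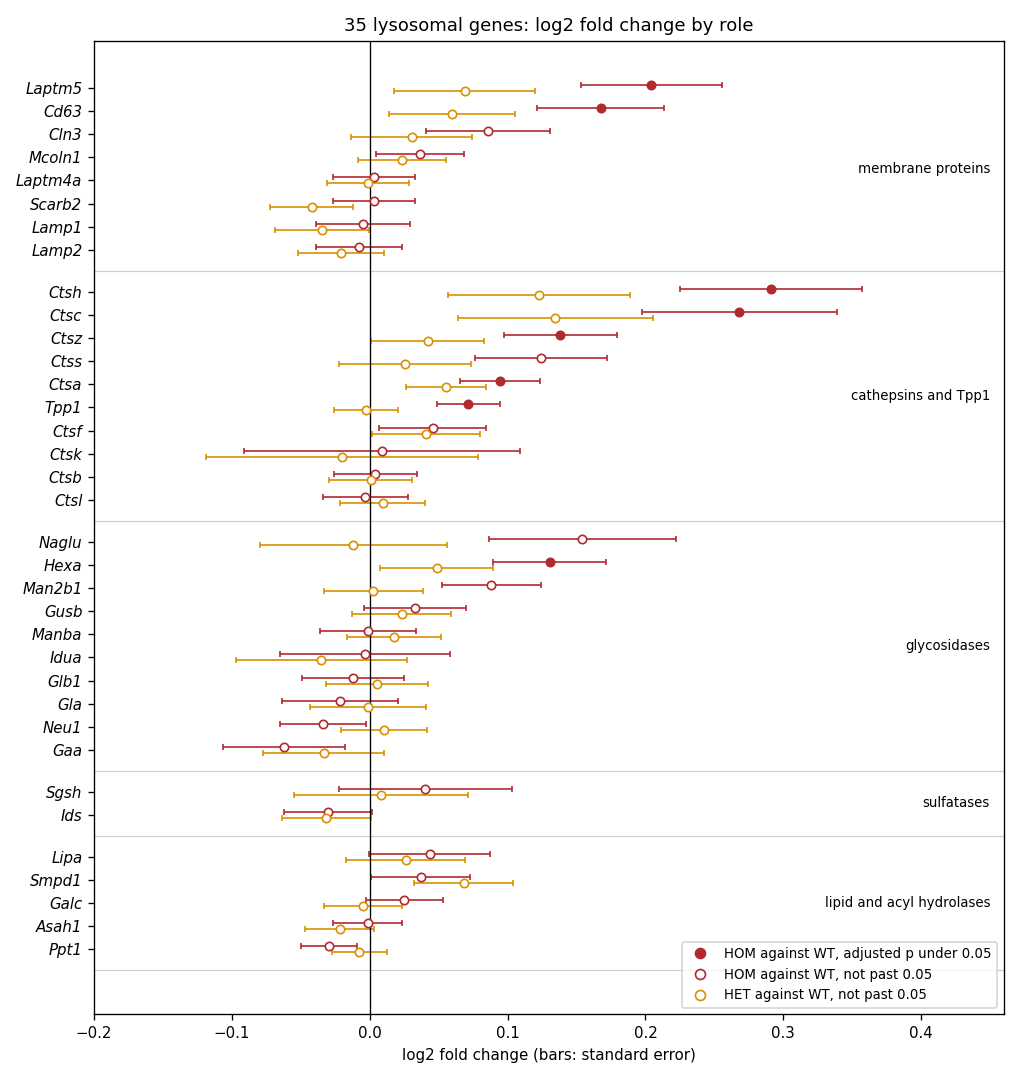
Log2 fold change over WT of each member, grouped by role, for HOM (red) and HET (orange), with bars for the standard error and filled points for an adjusted p under 0.05. The 8 filled points are Laptm5, Cd63, Ctsh, Ctsc, Ctsz, Ctsa, Tpp1 and Hexa, and the point of HET lies between 0 and that of HOM for all of them but Tpp1.

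Mice with 1 mutant allele were compared with the same WT libraries. In HET against WT 0 of 35 passed by edgeR, DESeq2 or limma voom, and 0 reached an unadjusted p under 0.05, where edgeR called 0% of all genes (0 of 16110, with 1547 at an unadjusted p under 0.05). The largest values were those of Ctsc (0.13, edgeR adjusted p = 0.536) and Ctsh (0.12, adjusted p = 0.537), and the lowest was -0.04. The median over the members was 0.008, against 0.001 over all genes. The HET mean lay between those of WT and HOM for 7 of the 8 members called in HOM, which is no separate support, since the comparisons share WT.

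HOM and HET were also compared directly. By edgeR, DESeq2 and limma voom 0 of 35 passed, with 9 at an unadjusted p under 0.05, where edgeR called 0.0372% of all genes (0.0124% higher and 0.0248% lower). Tpp1 came nearest, with a log2 fold change of HOM over HET of 0.07 (edgeR adjusted p = 0.239), then Laptm5 with 0.14 (adjusted p = 0.392) and Ctsh with 0.17 (adjusted p = 0.416). A difference between 1 and 2 alleles was therefore not shown for any member.

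Other lysosomal genes, listed by function, were read in the same fit. Of 29 other hydrolases and cofactors, 5 were higher in HOM than in WT and 1 was lower, with a median of 0.054. Gm2a, the activator protein that presents ganglioside GM2 to hexosaminidase, went from 50.4 ± 1.93 to 56.5 ± 2.4 CPM (a log2 gain of 0.16, SE 0.03, edgeR adjusted p = 0.00169). Grn, the gene of progranulin, rose by 0.14 (edgeR adjusted p = 0.0235). Ppt2, a thioesterase related to Ppt1, rose by 0.14 (adjusted p = 0.0387) and is named in addition to the rule for named genes. Hgsnat, the acetyltransferase of heparan sulfate breakdown, fell from 51.3 ± 2.2 to 46.6 ± 2.75 CPM (log2 fold change -0.14, adjusted p = 0.0243). Of these, Gm2a was called without each single library. Grn was lost without WT 2 or WT 6, and Hgsnat without WT 6. Ppt2 was lost without any 1 of WT 2, WT 3, WT 4, WT 6, WT 7, WT 8, HOM 1, HOM 5, HOM 9 or HOM 10.

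Of 21 other lysosomal membrane proteins tested, 1 was higher and 0 were lower: Cd68, a glycoprotein of phagocytes, at 8.04 ± 0.536 CPM in WT and 9.21 ± 0.785 in HOM (log2 fold change 0.20, edgeR adjusted p = 0.0214). Of 24 genes of enzyme sorting and of transcriptional regulators, MiT factors included, 0 were higher and 1 was lower. The lower gene was Zkscan3, described as a repressor of lysosomal genes. It went from 74.7 ± 5.2 to 65.3 ± 5.79 CPM (log2 fold change -0.19, edgeR adjusted p = 0.021). Over the 3 lists 8 of 74 were called (10.8%), with a median log2 fold change of 0.024, beside 7.61% and 0.005 for all genes. Tfeb averaged 5.39 ± 0.344 CPM in WT and 5.82 ± 0.416 in HOM (log2 fold change 0.11, adjusted p = 0.257), and Tfe3 42.1 ± 1.53 and 42.4 ± 2.39. Without WT 6 the count over the 3 lists was 4, and without WT 2 it was 5. The same fits called 595 and 725 of all genes, against 1226 with every library.

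Markers of several cell types moved in the same comparison. Microglia markers, without Ctss and Laptm5, were higher in 10 of 21 genes and lower in 0, with a median log2 fold change of 0.163, and their summed level ran from 604 to 715 CPM in WT and from 680 to 848 in HOM. Astrocyte markers were higher in 3 of 15 (6550 to 7590 CPM in WT, 6790 to 7900 in HOM) and endothelial and mural markers in 6 of 18 (492 to 548 and 528 to 632 CPM). Meningeal fibroblast markers were higher in 3 of 15 (67 to 131 and 89.5 to 285 CPM), and all 15 had a positive log2 fold change, with a median of 0.595. Markers of perivascular macrophages and monocytes were higher in 1 of 8 tested (4.28 to 10.6 and 6.24 to 26.2 CPM for the 10 in the table), and all 8 had a positive value, with a median of 0.59. The medians were 0.106 for astrocyte, 0.174 for endothelial and mural, -0.046 for neuron and -0.091 for oligodendrocyte markers. Neuron markers were lower in 2 of 14 (15000 to 15700 and 14400 to 16200 CPM), and 0 of 15 oligodendrocyte markers passed (4360 to 7530 and 4180 to 7840 CPM), as did 0 of 7 choroid plexus and 0 of 5 blood markers. In HET the summed levels were 615 to 721 CPM for microglia, 511 to 637 for endothelial and mural, 92.6 to 191 for meningeal and 6.34 to 19 for perivascular markers. The mean perivascular score was -0.625 in WT, -0.098 in HET and -0.123 in HOM. No marker in any list had a mean of 0 in any genotype. Added as a covariate to the fit of all libraries, the mean log2 CPM of the microglia markers left 0 of the 35 members and 75 of all 16110 genes called in HOM against WT. With it the log2 fold change of Laptm5 was 0.06 (SE 0.051) in place of 0.20, that of Ctsz 0.04 (SE 0.044) in place of 0.14, that of Ctss -0.01 (SE 0.047) in place of 0.12, and that of Ctsh 0.17 (SE 0.078) in place of 0.29. Ctsc stood at 0.20 (SE 0.09) in place of 0.27, Cd63 at 0.09 (SE 0.055) in place of 0.17, Ctsa at 0.06 (SE 0.036) in place of 0.09, Hexa at 0.05 (SE 0.046) in place of 0.13 and Tpp1 at 0.03 (SE 0.026) in place of 0.07. The meningeal and the endothelial scores as covariates left 0 members and 99 genes. With them Ctsc was at 0.20 (SE 0.074), Laptm5 at 0.18 (SE 0.066), Ctsh at 0.17 (SE 0.07), Hexa at 0.11 (SE 0.053), Ctsz at 0.09 (SE 0.052), Ctsa at 0.08 (SE 0.039), Cd63 at 0.08 (SE 0.053) and Tpp1 at 0.04 (SE 0.028). All 8 thus kept a positive value in both fits, with larger standard errors for all but Laptm5 under the microglia score. The scores themselves differed between genotypes. Of the 10 HOM libraries, 10 lay above the WT mean of the microglia score, 10 above that of the endothelial and mural score and 8 above that of the meningeal score. These fits therefore cannot separate genotype from the scores, and the part of these cell types in the members' differences was not tested.

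How the members varied between libraries of the same genotype was read against the same marker scores. Each member and each score was taken as its deviation from the genotype mean in log2 CPM over 28 libraries, and all 315 pairs of member and marker list were tested by permutation within genotype and adjusted together. Of the 315 pairs, 23 passed, with raw permutation p from 1e-05, the smallest possible, to 0.0031. All values of a library are shares of 1 total, so genes are not independent of each other. Microglia markers went with 5 members at an adjusted p under 0.05 in the positive direction and 1 in the negative. Ctss had a Pearson r of 0.67 (permutation, adjusted p = 0.013) and a Spearman rho of 0.72 (0.0079), with r at 0.63 without WT 8 and HOM 10, the libraries farthest from the median of the score. Laptm5 had an r of 0.66 (permutation, adjusted p = 0.013) and a rho of 0.56 (0.061), with r at 0.52 without the same pair. Tpp1 had an r of 0.59 (permutation, adjusted p = 0.034), a rho of 0.44 (0.16) and 0.41 without the pair. Ctsz had an r of 0.58 (permutation, adjusted p = 0.034), a rho of 0.58 (0.052) and 0.51 without the pair, and Hexa an r of 0.51 (0.034), a rho of 0.59 (0.044) and 0.53. Ppt1 ran the other way, with an r of -0.56 (permutation, adjusted p = 0.035), a rho of -0.60 (0.044) and -0.57 without the pair, and Gla followed with an r of -0.52 (0.085) and a rho of -0.44 (0.16). Within WT, HET and HOM taken apart, r was 0.95, 0.73 and 0.50 for Ctss, 0.75, 0.87 and 0.50 for Laptm5 and -0.56, -0.50 and -0.70 for Ppt1.

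Ctsc and Ctsh, the members with the largest fold changes, went with markers of perivascular macrophages and monocytes. Ctsc had an r of 0.72 (permutation, adjusted p = 0.013) and a rho of 0.75 (0.0063), with 0.63 without WT 6 and HOM 3. Laptm4a had an r of 0.67 (permutation, adjusted p = 0.013), a rho of 0.49 (0.12) and 0.49 without that pair. Ctsh had an r of 0.61 (permutation, adjusted p = 0.034), a rho of 0.51 (0.12) and 0.48 without it, and Lamp2 was the fourth at 0.51 (0.15). Mcoln1 had the lowest r, -0.65 (permutation, adjusted p = 0.016; rho -0.68, 0.014), and Idua -0.60 (0.033; rho -0.65, 0.022). The same 3 genes Laptm4a, Ctsc and Ctsh headed the meningeal fibroblast score, with r of 0.79, 0.61 and 0.61 (permutation, adjusted p = 0.0031, 0.033 and 0.034), rho of 0.64, 0.56 and 0.47 (0.02, 0.073 and 0.15) and r of 0.70, 0.46 and 0.51 without HOM 3 and HOM 7. Ctsl was the fourth there at 0.49 (0.2), and Mcoln1 and Idua were lowest at -0.47 and -0.42. The perivascular and meningeal scores ranked many libraries alike. In both, WT 6 was lowest and HOM 3 highest of all libraries, and HET 2 was lowest and HET 4 highest of HET. The highest WT library and the lowest HOM library were not the same. The correlations with these scores are therefore not separate results. Against the microglia score Ctsc had an r of 0.22 (permutation, adjusted p = 0.65), and Ctsh one of 0.45 (0.18), and whether the scores differ in their relation to either gene was not tested.

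Oligodendrocyte markers had 3 members past the threshold, all of them among the 8 membrane proteins, while the other 5 (Laptm5, Cd63, Laptm4a, Mcoln1 and Cln3) had r from -0.20 to 0.18. Lamp1 had an r of 0.64 (permutation, adjusted p = 0.033) and a rho of 0.69 (0.02), Lamp2 an r of 0.59 (0.042) and a rho of 0.54 (0.083), and Scarb2 an r of 0.58 (0.042) and a rho of 0.54 (0.073), with Lipa the fourth at 0.55 (0.056). Without WT 8 and HOM 6 these r values were 0.58, 0.49, 0.40 and 0.46. Neu1 (-0.48) and Glb1 (-0.42) were lowest there and did not pass. Both stood on the other side for neuron markers, where Ctsb led with an r of 0.62 (permutation, adjusted p = 0.033; rho 0.54, 0.083), ahead of Smpd1 (0.52), Neu1 (0.52) and Glb1 (0.46), which did not pass, and Ctss (-0.53) and Ctsl (-0.42) were lowest. Without HOM 1 and HOM 10 the r of Ctsb was 0.49. Astrocyte markers went with Ctsz (r of 0.65, permutation, adjusted p = 0.016, with rho 0.59, 0.044), Cd63 (0.61, 0.033, with rho 0.67, 0.02) and Lamp1 (0.58, 0.034, with rho 0.57, 0.061). Tpp1 was the fourth at 0.52. They went against Gla (-0.60, permutation, adjusted p = 0.034, with rho -0.60, 0.044), with Ids next at -0.45. For Gla, r with the astrocyte score was 0.04 in WT, -0.79 in HET and -0.68 in HOM. Endothelial and mural markers had 1 member past the threshold, Gla, with an r of -0.63 (permutation, adjusted p = 0.033; rho -0.64, 0.04), and choroid plexus and blood markers had 0.

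**Figure D4:**
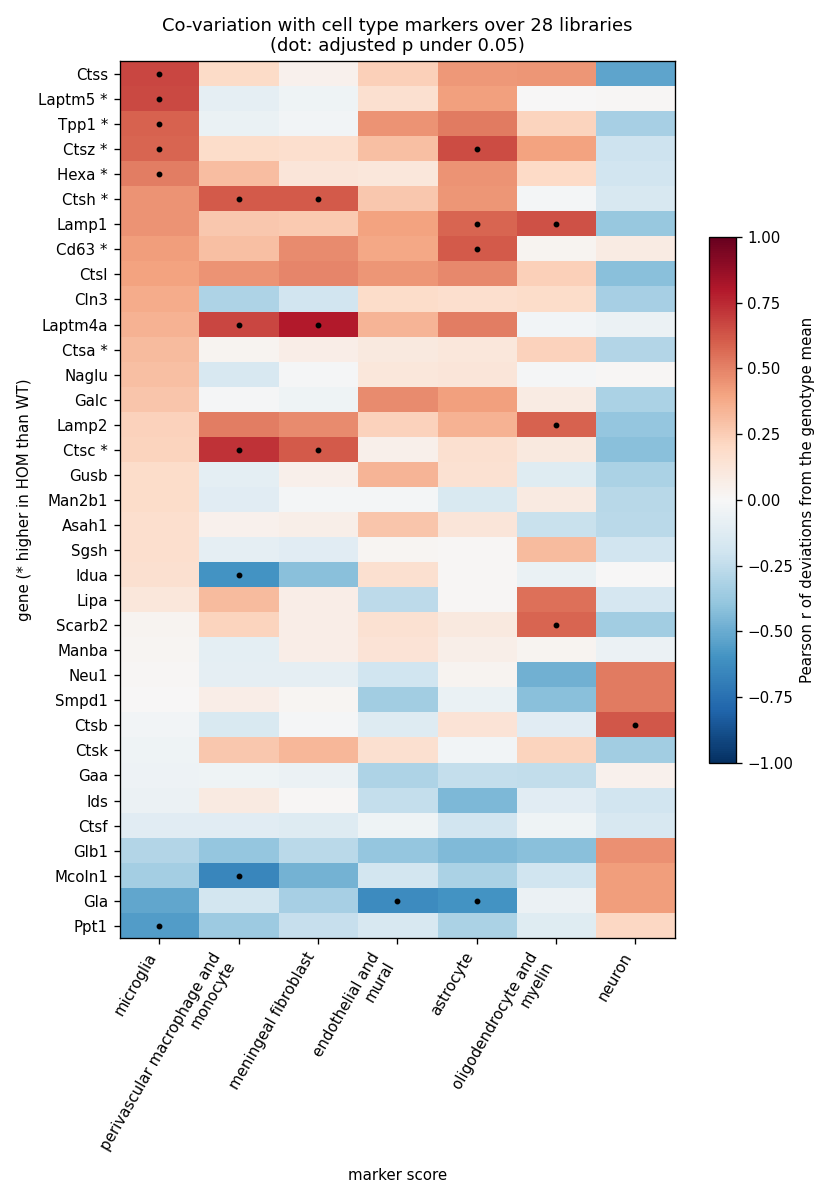
Pearson r between each member (rows) and the mean of sets of cell type markers (columns), both as deviations from the genotype mean over 28 libraries. The choroid plexus and ependymal set and the blood set are not drawn. A dot marks a permutation adjusted p under 0.05, and an asterisk the 8 members higher in HOM. Red cells for microglia gather Ctss, Laptm5, Tpp1, Ctsz and Hexa, while Ctsc, Ctsh and Laptm4a are red for the perivascular and meningeal markers and Ctsb for neurons.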

How the data were processed

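The authors deposited 1 table of raw counts, whole numbers of reads for every gene in 28 libraries, with no normalisation. Per the labels' protocols, libraries were made from polyA RNA with a stranded mRNA kit. Per the submitters' processing notes, Trim Galore 0.4.3, HISAT2 2.0.5 and the build GRCm38 were used. Which program counted the reads, whether it used strand and which gene models it took is not given in the sources used here, so where genes overlap on opposite strands their reads may be mixed. Exons of Ctsa, Ctsz, Ppt1, Idua, Cln3, Lamp1, Hexa, Sgsh and Ctsb overlap a coding neighbour there in GENCODE vM21.

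The 57 identifiers with several rows (122 rows) were summed, and groups follow the titles. Among 378 pairs of libraries the closest differed by a chi-square of 6.37 per degree of freedom, so none counted as a duplicate. Genes passing filterByExpr (16110) were scaled by TMM and tested with edgeR 4.0.16 in R 4.3.3 (glmQLFit and glmQLFTest, robust, two-sided) with all 28 libraries fitted together by genotype, adjusted by Benjamini-Hochberg over all genes at 0.05. The SE is the log2 fold change over the root of F. CPM uses TMM library sizes, and exon lengths come from GENCODE vM21. Log2 CPM (prior count 2) served the correlations, tested with 100000 permutations. Given with full values: members past the threshold in HOM against WT, otherwise the smallest p of a role, and up to 4 called genes per direction of each pathway list. The steps were tested on simulated data. Members and lists were chosen with earlier results of these data known. Alternatives were DESeq2 1.42.0, DESeq2 size factors in edgeR, limma 3.58.1 voom, filters, sample subsets, a replicate block and marker covariates. Some genes of the pathway lists are counted but not reported here by name.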

Additional observations from a re-analysis of the deposited data

Results flagged for a closer look

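Among 108 sets of values (35 members and the total count in each genotype), 13 held a library that lay far from the others of its genotype, judged by its gap to the nearest library over the range. Chance alone would give this in about 1 set in 20. Ctsk stood at 5.09 CPM in HOM 3, with the next HOM library at 3.71. HOM 10 was highest for Idua (22.1 CPM), Tpp1 (88.8) and Cln3 (18.2), and it also had the highest summed level of microglia markers (848 CPM). Ctsb reached 764 CPM in HOM 1, against 697 in the next. WT 8 was highest for Ctss (103 CPM) and Scarb2 (75.4), and had the highest microglia marker sum of the WT libraries (715 CPM). In HET, Hexa reached 60.2 CPM in HET 10, against 50.1 in the next, Laptm4a 183 CPM in HET 4, Laptm5 36.4 CPM in HET 3 and Gaa 248 CPM in HET 9. HET 9 was lowest for Gusb (13 CPM), and HET 2 was lowest for Ctsc (7.01 CPM).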

How the results depend on the processing

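In HOM against WT, the count of 8 members called was 8 with DESeq2, and 7 with its size factors in edgeR, with limma voom or with a filter of 1 CPM in 8 libraries. It was 5 with no count filter and 5 with only the groups compared in the fit. It was 2 without WT 6 and HOM 3, 4 without HOM 1 and HOM 2, and 0 with either the microglia score or the meningeal and endothelial scores as covariates. It ranged from 2 to 8 over the 28 fits without 1 library. With the replicate number as a block the count was 4. Over all genes the main fit called 1226 of 16110. DESeq2 called 1563, its size factors in edgeR 1199, limma voom 1392 and the 1 CPM filter 1261 of 14065. The fit with no count filter called 984 of 20402, that of only the groups compared 832 of 15927, and the block 737. All-gene calls were 509 without WT 6 and HOM 3, 876 without HOM 1 and HOM 2, and 595 to 1345 without 1 library. Same-numbered libraries did not deviate together (26 pairs, r from -0.164 to 0.183, median 0.0108), and 2 of 28 libraries correlated best with one of their own number, so the numbers were not taken as pairs. The count of other lysosomal genes, 8, was 2 without WT 6 and HOM 3, 5 without HOM 1 and HOM 2 and 1 with either set of covariates, and ranged from 4 to 10 without 1 library. No member was called in HET against WT or in HOM against HET in any of these 39 alternatives, so those counts ranged from 0 to 0. Among the members, the sign was followed only for the 8 called and for Ppt1, Ids, Ctss, Man2b1, Naglu and Gaa. Of these it turned for Ppt1 (0.00) and Ctss (-0.01) with the microglia score and for Ids (0.00) without HOM 1 and HOM 2. None of them was called in those fits. Laptm5 and Ctsh were called in 37 of 39 alternatives each, all but those with covariates. The cause of these changes was not tested. HOM 2 and HOM 1 were the shallowest libraries, and intervals describe the spread between libraries only.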
